A study of Mus musculus with 10 samples.

Results

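Glutathione transferases join the tripeptide glutathione to reactive lipid products, drugs and other electrophiles, and this account covers the mouse genes of the cytosolic alpha, pi, theta and omega classes. They were taken as a list of 10 named genes outside the mu class, 4 alpha (Gsta1, Gsta2, Gsta3, Gsta4), 2 pi (Gstp1, Gstp2), 3 theta (Gstt1, Gstt2, Gstt3) and 1 omega (Gsto1), of 47729 genes in the table, and all 10 were matched by symbol. RNA was sequenced from the retinal pigment epithelium (RPE), the pigmented layer that supports the photoreceptors, of 5 CD1 mice, wild type and aged 40 postnatal days. The Nrf2 eye of each mouse was given AAV Best1 GFP together with AAV Best1 hNrf2, and its other eye, the GFP control eye, AAV Best1 GFP alone. AAV is adeno-associated virus, a carrier of genes, and the Best1 promoter drives genes in the RPE. Each group therefore held 5 eyes, 1 per mouse, and all of them expressed GFP in the RPE. The Nrf2 eyes received an additional vector, with another capsid and the human coding sequence, and no control eye received an equal load of a further vector. Nrf2 and the additional vector cannot be told apart in this design. RNA was taken from the eyecup after the retina was removed, so cells beside the RPE could contribute.

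Conjugation with glutathione is one of the reactions of phase II metabolism, in which reactive compounds are made soluble for export. The transferase classes are named by sequence. Alpha enzymes act on lipid peroxides and alkenals such as 4-hydroxynonenal, pi enzymes act on a range of electrophiles and take part in protein glutathionylation, theta enzymes act on small halogenated compounds and sulfate esters, and omega enzymes mainly remove glutathione from proteins and reduce dehydroascorbate. NRF2, the factor encoded by Nfe2l2, binds antioxidant response elements with small MAF proteins, and several transferase genes are known targets. The RPE meets a high oxidative load from light, oxygen and the outer segments it engulfs, and glutathione is among its main defences.

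Promoter sequences are printed for the alpha and pi genes that stood highest in the Nrf2 eyes relative to control, among those with an entry in the RefSeq table used here (GRCm38.p6), because NRF2 acts through short motifs near such starts. Each window runs from 250 bases before the RefSeq start to 50 bases after it, on the strand of the gene. Windows were found for 8 of the 10 genes, and Gsta4 and Gstt2 had none. The RefSeq starts of Gsta2, Gstp2 and Gstt1 lie well inside the longer spans that the GENCODE annotation gives these genes. Motifs were searched on both strands as TGACNNNGC, the core of the antioxidant response element, and TGANTCAGC, a MAF-type form, and the same stretch can match both. The choice of motifs was made after the sequences had been seen. Capitals mark a match and all other bases are in lower case.
Gsta1 (chr9:78230419-78230718, plus strand): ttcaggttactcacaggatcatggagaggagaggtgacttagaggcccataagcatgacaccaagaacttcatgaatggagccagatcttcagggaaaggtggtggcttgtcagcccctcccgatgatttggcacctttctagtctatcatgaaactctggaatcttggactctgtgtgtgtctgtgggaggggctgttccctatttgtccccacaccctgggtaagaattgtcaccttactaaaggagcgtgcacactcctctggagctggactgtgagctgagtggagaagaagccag
Gsta2 (chr9:78347096-78347395, minus strand): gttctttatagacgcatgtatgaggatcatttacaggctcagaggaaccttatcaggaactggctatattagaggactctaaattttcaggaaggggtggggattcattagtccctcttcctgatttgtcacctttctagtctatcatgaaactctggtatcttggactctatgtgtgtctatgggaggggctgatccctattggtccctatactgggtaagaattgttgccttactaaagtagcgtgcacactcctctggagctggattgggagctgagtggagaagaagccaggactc
Gsta3 (chr1:21240335-21240634, plus strand): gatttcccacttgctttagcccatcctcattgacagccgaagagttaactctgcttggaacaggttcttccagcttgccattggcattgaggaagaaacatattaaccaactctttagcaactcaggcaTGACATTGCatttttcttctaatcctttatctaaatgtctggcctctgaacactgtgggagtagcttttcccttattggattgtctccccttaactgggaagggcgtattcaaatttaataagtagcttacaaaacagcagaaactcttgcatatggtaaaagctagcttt
Gstp1 (chr19:4037863-4038162, minus strand): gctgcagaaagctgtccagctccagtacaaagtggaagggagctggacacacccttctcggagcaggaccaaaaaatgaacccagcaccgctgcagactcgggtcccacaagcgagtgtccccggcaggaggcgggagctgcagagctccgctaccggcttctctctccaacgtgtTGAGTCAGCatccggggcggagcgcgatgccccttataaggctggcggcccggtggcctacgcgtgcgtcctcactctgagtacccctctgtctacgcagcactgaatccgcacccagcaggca
Gstp2 (chr19:4042172-4042471, minus strand): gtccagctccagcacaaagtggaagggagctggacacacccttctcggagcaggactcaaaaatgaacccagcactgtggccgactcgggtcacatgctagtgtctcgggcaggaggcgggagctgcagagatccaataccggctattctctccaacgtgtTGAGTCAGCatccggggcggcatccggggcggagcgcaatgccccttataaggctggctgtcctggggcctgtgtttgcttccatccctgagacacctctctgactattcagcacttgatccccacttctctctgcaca
Gsta3 held TGACATTGC, beginning 121 bases before the start. Gstp1 and Gstp2 held the same letters, TGAGTCAGC, 74 and 89 bases before their starts. The other 5 genes with a window, which include Gsta1 and Gsta2, held neither motif in it, and their windows say nothing of sites farther away. For scale, the core was in 12.4% of 32851 mouse windows and the MAF-type form in 1.19%. The windows of Gstp1 and Gstp2 were identical at 76.4% of aligned positions, and those of Gsta1 and Gsta2 at 74.6%. A match describes the letters only and is not evidence of binding.

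Library totals ran from 12298404 to 27310638 counts, so a count of 0 allowed up to 0.110 to 0.244 CPM (counts scaled to a common library total), covering counting error only. Nfe2l2 was higher in all Nrf2 eyes, with 353 ± 53.6 CPM (SD, n = 5) against 88.7 ± 12.7 CPM in control eyes, although its counts may hold human reads from the vector. The label was checked with 14 RPE markers, which summed to 26044 to 50055 CPM in control eyes and 13932 to 33882 CPM in Nrf2 eyes, and 7 of the 14 were lower and 0 higher by the test used here. None of the RPE markers was at 0 in every library. Of 13 macrophage markers, 12 were higher, with sums of 166 to 302 CPM in control and 403 to 2106 CPM in Nrf2 eyes. The rod markers ran from 162 to 21391 CPM in control and from 312 to 8475 CPM in Nrf2 eyes, with 0 of 12 tested called, and mouse 2 was highest in both groups. In each list of cone, fibroblast, endothelial, muscle, Mueller glia and melanocyte markers at most 1 gene was called. These were Sox10, a melanocyte marker, and Rlbp1, listed both for Mueller glia and for the RPE, and both were lower. Mlana, Dct, Tyrp1 and Pmel were in the melanocyte and the RPE lists. The muscle markers summed to 51.0 to 102 CPM in control and 10.2 to 585 CPM in Nrf2 eyes. In bulk RNA, fewer cells of a type and less RNA per cell cannot be told apart, and the part that these cells had in the transferase values was not tested.

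Differences were tested with edgeR over 16362 genes with the mouse as a block, so that each Nrf2 eye was set against the control eye of the same mouse. All 10 transferase genes had enough counts to be tested. At an adjusted p-value under 0.05, 6 of the 10 differed, against 6.33% of all tested genes. Of these, 4 were higher (Gsta1, Gsta2, Gsta3, Gstp1), where the share of all genes called higher was 3.6%, and 2 were lower (Gstt2, Gstt3), where it was 2.73%. With the closely alike Gsta1 and Gsta2 summed, and Gstp1 and Gstp2 summed, 3 of 8 rows were higher and 2 lower. The values of the groups did not overlap for 6 genes that were higher in the Nrf2 eyes, against 3.87% of all tested genes, and for 1 gene that was lower, against 2.41%. The median log2 fold change was 0.96 over the 10 genes and -0.01 over all tested genes.

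**Figure D1:**
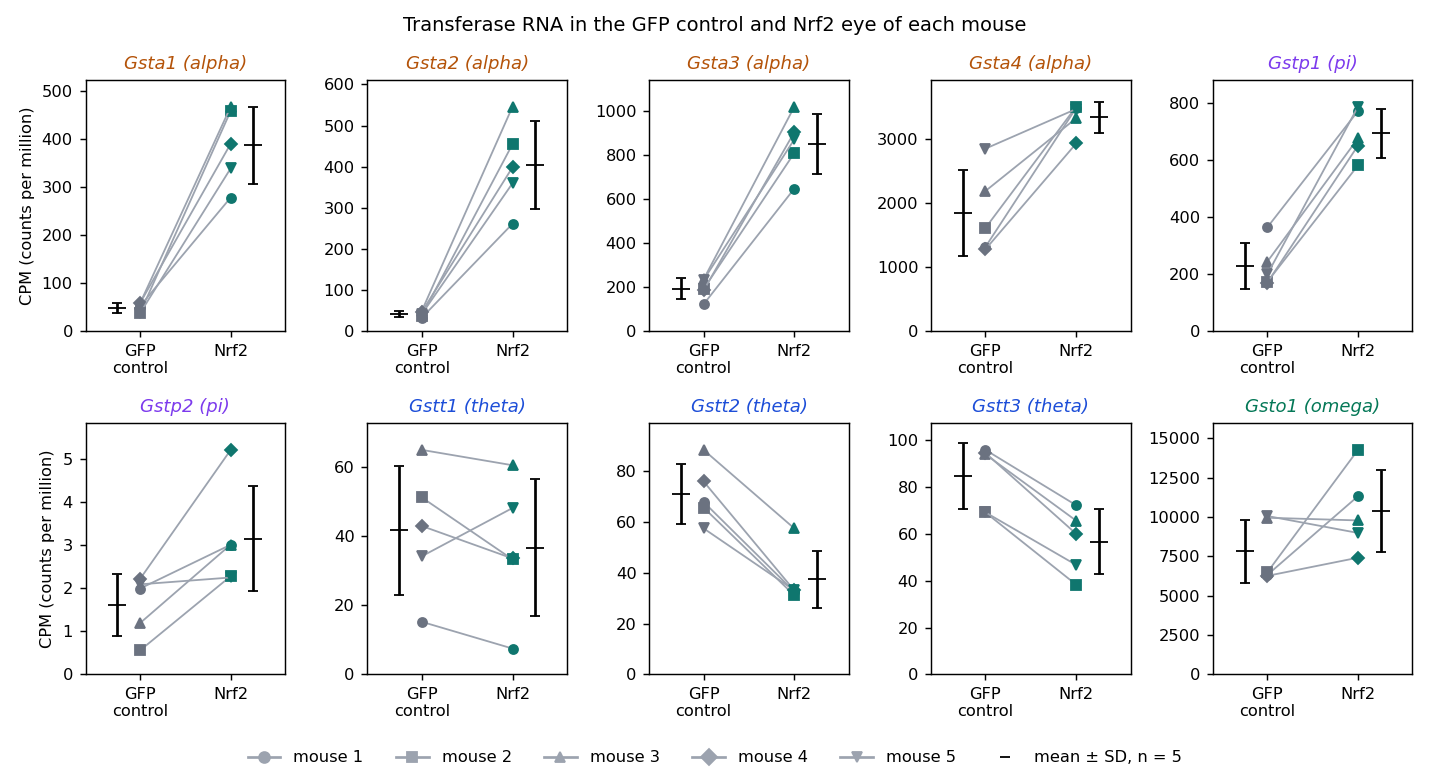
CPM of each of the 10 transferase genes (y axis, linear, its own scale per panel) in the GFP control and Nrf2 eye of 5 mice; lines join the eyes of a mouse, and bars give mean ± SD. Gsta1, Gsta2, Gsta3 and Gstp1 rise in every mouse with no overlap between groups, as do Gsta4 and Gstp2, which did not pass the test. Gstt2 and Gstt3 fall in every mouse, and the lines of Gstt1 and Gsto1 go up in some mice and down in others.

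Gsta1 and Gsta2 encode alpha enzymes that act on alkenals and organic peroxides, and they had the largest fold changes of the 10 genes. Gsta2 (ENSMUSG00000057933, chromosome 9, 78331018 to 78355788, minus strand, mm10) was at 32.8, 38.1, 49.2, 46.8 and 41.7 CPM in the control eyes of mice 1 to 5, and at 261, 455, 546, 399 and 359.7 CPM in their Nrf2 eyes. The lowest Nrf2 eye, that of mouse 1, lay far above the highest control eye. The fitted log2 fold change, Nrf2 over control (log2FC), of Gsta2 was 3.23 (SE 0.12, adjusted p = 6.02e-05), which is 9.40-fold. Gsta1 (ENSMUSG00000074183, chromosome 9, 78230656 to 78242684, plus strand) was at 51.9, 37.4, 57.5, 58.1 and 37.2 CPM in control eyes and at 278, 458, 467, 389.9 and 339 CPM in Nrf2 eyes of the same mice. Mouse 1 was again the lowest of the Nrf2 eyes, and the groups did not overlap. Its log2FC was 2.98 (SE 0.20, adjusted p = 0.000257), or 7.89-fold.

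The transcripts of Gsta1 and Gsta2 were identical at 97.2% of 870 aligned positions, with an unbroken identical run of 253 bases, so reads could have been shared or lost between them. Their promoter windows, printed above, were less alike. The 2 genes were therefore also summed, giving 90.2 ± 14.7 CPM in control and 790.3 ± 184 CPM in Nrf2 eyes (SD, n = 5 each). That sum had a log2FC of 3.10 (SE 0.16, adjusted p = 0.000139), between those of its members. How the rise was divided between the copies remains uncertain, and the rise of the pair does not rest on that division.

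Gsta3 (ENSMUSG00000025934, chromosome 1, 21240589 to 21265661, plus strand) encodes an alpha enzyme known in mice for conjugating the epoxide of aflatoxin. It was at 122, 192, 235, 185 and 233 CPM in control eyes and at 647, 809, 1019, 903 and 871 CPM in Nrf2 eyes of mice 1 to 5. Mouse 1 was lowest in both groups and mouse 3 highest in both, and the groups did not overlap. The log2FC of 2.14 (SE 0.09, adjusted p = 0.000257), or 4.41-fold, had within-mouse log2 ratios of 1.90 to 2.40, a narrow range beside that of Gsta1 (2.42 to 3.61). In the annotation Gsta3 overlaps the antisense gene Gm28836, which shares no exon base with it and had 48 counts in all libraries together, against 104980 for Gsta3.

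Gsta4 (ENSMUSG00000032348, chromosome 9, 78182774 to 78209349, plus strand) encodes the transferase with the highest known activity toward 4-hydroxynonenal, a product of lipid peroxidation, and it was the most abundant alpha gene. It was at 1314, 1609, 2186, 1277 and 2846 CPM in control eyes and at 3482, 3501, 3321, 2927 and 3465 CPM in Nrf2 eyes. The Nrf2 eyes lay close together, the control eyes of mice 3 and 5 stood above the other control eyes, and the groups did not overlap. The log2FC was 0.91 (SE 0.21), with a value above 0 in 5 of 5 mice, and its adjusted p of 0.0501 did not pass the threshold. Mouse 5, with the highest control eye, had the smallest within-mouse log2 ratio, 0.28. Of 12 alternatives, 5 brought it under the threshold: without that mouse the log2FC was 1.09 (adjusted p = 0.0325), and it also passed with DESeq2 (9.90e-05), with RLE size factors (0.0484), with no filter on low counts (0.0124) and with libraries thinned to 1 total (0.0457). The other 7 did not. The adjusted p was 0.0920 with no block, 0.200 with the rod markers as a covariate, and 0.103, 0.166, 0.0852 and 0.149 without mouse 1, 2, 3 or 4. With the RPE markers as a covariate the log2FC was 0.40 (adjusted p = 0.783).

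Gstp1 (ENSMUSG00000060803, chromosome 19, 4035407 to 4037985, minus strand) encodes the main pi enzyme, which conjugates many electrophiles and binds signalling kinases. It was at 363, 173, 243, 169.6 and 199 CPM in control eyes and at 771, 581, 675, 650.2 and 786 CPM in Nrf2 eyes of mice 1 to 5. The control eye of mouse 1 was well above the other control eyes, and still below every Nrf2 eye. The log2FC was 1.63 (SE 0.17, adjusted p = 0.00119), or 3.10-fold, and mouse 1 had the smallest within-mouse log2 ratio, 1.09, against 1.47 to 1.98 in the other mice.

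Gstp2 (ENSMUSG00000038155, chromosome 19, 4040285 to 4046023, minus strand), a second pi gene beside Gstp1, was hardly detected, with 9 to 80 counts per library. Its control eyes were at 1.99, 0.555, 1.19, 2.21 and 2.09 CPM, and its Nrf2 eyes at 3.01, 2.28, 3.01, 5.20 and 2.25 CPM. The groups met without overlapping, between the control eye of mouse 4 and the Nrf2 eye of mouse 5. The log2FC of 1.01 (SE 0.30, adjusted p = 0.155) did not pass. The transcripts of Gstp1 and Gstp2 were identical at 94.2% of 798 aligned positions with a run of 369 identical bases, so counts given to Gstp2 could be reads of Gstp1 or the reverse. The sum of both was set by Gstp1, with a log2FC of 1.63 (adjusted p = 0.00121).

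The theta genes lie near each other on chromosome 10, and they stood lower in the Nrf2 eyes where they differed. Gstt2 (ENSMUSG00000033318, 75831114 to 75837424, minus strand) was at 67.8, 65.6, 88.3, 75.9 and 57.5 CPM in control eyes and at 32.6, 31.1, 57.4, 33.0 and 33.1 CPM in Nrf2 eyes. In 4 mice the Nrf2 eye lay within a narrow band, and that of mouse 3 was higher, just below the lowest control eye. Gstt2 fell, with a log2FC of -0.97 (SE 0.11, adjusted p = 0.00390), so that control eyes were 1.95-fold higher. Mouse 3 also had the highest Gstt2 of the control eyes and the highest RPE marker sum of the Nrf2 eyes, 33882 CPM against 13932 to 22712 CPM in the other mice.

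Gstt3 (ENSMUSG00000001665, 75774115 to 75781414, minus strand) was at 95.7, 69.1, 93.9, 94.4 and 69.1 CPM in control eyes and at 72.1, 38.3, 65.5, 59.9 and 46.7 CPM in Nrf2 eyes. The groups overlapped, because the Nrf2 eye of mouse 1 exceeded the control eyes of mice 2 and 5, yet every mouse had less in its Nrf2 eye. Gstt3 fell, with a log2FC of -0.61 (SE 0.07, adjusted p = 0.0146). The call was lost without the mouse block (adjusted p = 0.157), with the rod markers as a covariate (0.0717), and without mouse 2 (0.0783), mouse 3 (0.0602), mouse 4 (0.0665) or mouse 5 (0.0514). The log2FC under these settings was -0.58 with no block, -0.56 with the rod covariate and between -0.52 and -0.60 without those mice. Gstt3 overlaps Gm20441 on the same strand over 524 exon bases, and Gm20441 had 31 counts in all, against 13584 for Gstt3.

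Gstt1 (ENSMUSG00000001663, 75783813 to 75798584, minus strand), whose enzyme acts on halogenated methanes, was at 15.2, 51.1, 64.9, 42.9 and 34.1 CPM in control eyes. In Nrf2 eyes it was at 7.47, 33.2, 60.4, 33.5 and 48.1 CPM. Mouse 1 was lowest and mouse 3 highest in both groups, and the groups overlapped widely. Gstt1 was lower in the Nrf2 eye of 4 of 5 mice, with a log2FC of -0.33 (SE 0.25, adjusted p = 0.443). It was -0.15 without mouse 1 and -0.51 without mouse 5.

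Gsto1 (ENSMUSG00000025068, chromosome 19, 47854970 to 47864790, plus strand), the omega enzyme that reduces dehydroascorbate and removes glutathione from proteins, was the most abundant gene of the 10. It was at 6317, 6486, 9958, 6263 and 10069 CPM in control eyes and at 11329, 14272, 9788, 7419.7 and 8991 CPM in Nrf2 eyes. The groups overlapped, with the Nrf2 eye higher in mice 1, 2 and 4 and lower in mice 3 and 5. The log2FC was 0.39 (SE 0.25, adjusted p = 0.509), and 0.24 without mouse 2. The control eyes of mice 3 and 5 were highest for both Gsto1 and Gsta4, and their RPE marker sums were 39101 and 26044 CPM, within the range of the control eyes and at its lower end. Gsto1 overlaps Cfap43 on the opposite strand with no shared exon base.

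**Figure D2:**
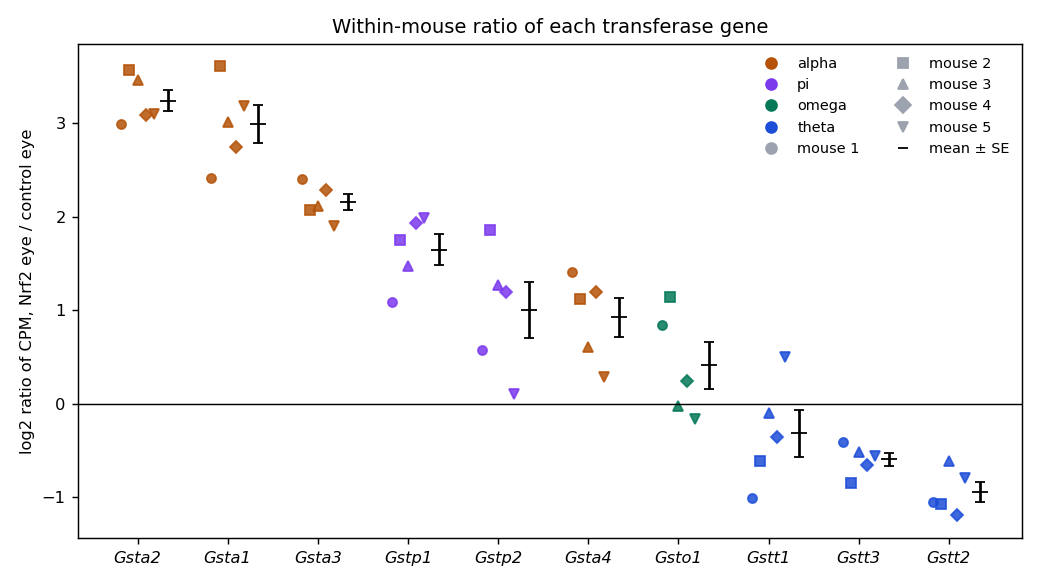
Within-mouse log2 ratio of CPM, Nrf2 eye over control eye (y axis), for each transferase gene (x axis, ordered by mean), coloured by class, with 1 symbol per mouse and bars for the mean ± SE of 5 mice. Gsta1 and Gsta2 lie between 2.42 and 3.61, the pi genes above 0 in all mice, Gstt2 and Gstt3 below 0 in all mice, and Gsto1 on both sides of 0.

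Beside these alternatives, 1 added after the data were seen bears on all the calls. When the mean level of the RPE markers was entered as a covariate with the mouse block, only Gsta2 of the 6 genes still passed (adjusted p = 0.0456). Under it the log2FCs of Gsta1 and Gstp1 were 2.85 (adjusted p = 0.117) and 1.82 (0.167), that of Gsta3 was 2.02 (0.123), and those of Gstt2 and Gstt3 were -0.78 (0.386) and -0.60 (0.449). The RPE marker level was lower in the Nrf2 eye of all 5 mice, so this covariate moved with the groups, and what belongs to one or the other cannot be told apart.

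The classes were then compared as summed counts of their listed genes, which do not depend on how reads were divided among those genes. Genes outside the list, such as the alpha gene Gm10639 described below, were not in the sums. The alpha sum was 2130.1 ± 701 CPM in control eyes and rose to 4979 ± 327 CPM (SD, n = 5 per group), with a log2FC of 1.27 (SE 0.18, adjusted p = 0.0118), and this call was lost with the rod covariate (adjusted p = 0.0626) and without mouse 2 (0.0521), where the log2FC was 1.19 and 1.26. Gsta4 made up most of it, so the alpha sum changed less than Gsta1, Gsta2 or Gsta3. The pi sum rose from 231 ± 80.6 to 696 ± 85.7 CPM, with a log2FC of 1.63 (SE 0.17, adjusted p = 0.00124). The theta sum was at 179, 186, 247, 213 and 161 CPM in control eyes and at 112, 103, 183, 126 and 128 CPM in Nrf2 eyes, so that the groups overlapped only through the Nrf2 eye of mouse 3. The theta sum fell, with a log2FC of -0.62 (SE 0.10, adjusted p = 0.0158). That call was lost without the block (adjusted p = 0.118), with the rod covariate (0.0719) and without mouse 2 (0.0839), mouse 3 (0.0503) or mouse 4 (0.0659). The log2FC was then -0.60 without the block, -0.55 with the rod covariate, and -0.52, -0.62 and -0.54 without those mice. The sum of all 10 genes was 10377 ± 2668 and 16165 ± 2709 CPM, with a log2FC of 0.65 (SE 0.20, adjusted p = 0.193).

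To ask whether the classes responded by unequal amounts, the within-mouse log2 ratios of the class sums were subtracted from each other for the 6 pairs of classes. Exact paired permutation tests over 5 mice cannot go below p = 0.063 (two-sided), so no pair could pass the threshold. The difference was in the same direction in 5 of 5 mice for 5 of the pairs, each with p = 0.063 (exact) and an adjusted value of 0.075. Alpha exceeded theta by 1.89 (SE 0.27) and omega by 0.87 (SE 0.17). Pi exceeded theta by 2.25 (SE 0.19) and omega by 1.23 (SE 0.35). Theta minus omega was -1.02 (SE 0.34). Alpha minus pi was -0.36 (SE 0.29, exact p = 0.3125), with a value above 0 in 1 of 5 mice, and was -0.58 without mouse 1 and -0.13 without mouse 5. That last difference turned to 1.01 (exact permutation test, adjusted p = 0.075) when a class was taken as the unweighted mean of its members' log2 ratios, which gives Gsta1 to Gsta3 the same weight as Gsta4. With these means alpha also exceeded omega by 1.92 and theta by 2.95, and pi exceeded omega by 0.92, with an adjusted value of 0.125.

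**Figure D3:**
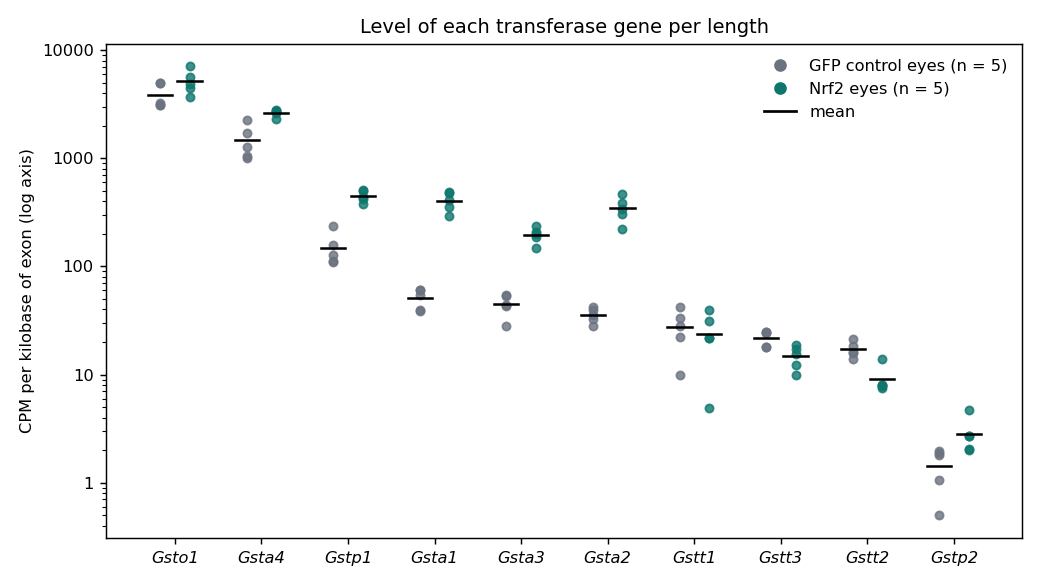
Level of each transferase gene as CPM per kilobase of exon (y axis, log scale) in 5 GFP control eyes and 5 Nrf2 eyes, points for eyes and bars for means, genes ordered by control mean. On this scale, which divides by all exon bases of a gene, Gsto1, Gsta4 and Gstp1 lead in both groups, Gsta1 and Gsta2 overlap with Gstp1 in the Nrf2 eyes, and Gstp2 is lowest. Divided by the longest coding transcript instead, Gsta1 and Gsta2 do not overlap with Gstp1.

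Levels between genes were compared as CPM per kilobase of exon. In control eyes Gsto1 was highest at 3865 ± 992 (SD, n = 5), then Gsta4 at 1458 ± 527 and Gstp1 at 148 ± 52.0, and none of these neighbours overlapped between genes. Below them came Gsta1 (50.7), Gsta3 (44.5), Gsta2 (35.5), Gstt1 (27.3), Gstt3 and Gstt2 (17.1), with overlap between each of these neighbours, and Gstp2 was lowest and apart at 1.44 ± 0.639. In Nrf2 eyes Gsto1 (5121 ± 1286) and Gsta4 (2637 ± 190.5) kept the first places. Gstp1 (448 ± 55.5), Gsta1 (404 ± 83.8) and Gsta2 (343 ± 90.2) overlapped in turn, and Gsta2 overlapped with Gsta3 (196 ± 31.4). Within libraries, on this scale, Gsta1 was above Gsta2 and Gsta2 above Gsta3 in 5 of 5 Nrf2 eyes, and Gstp1 was above Gsta1 in 3 of 5. Between Gsta3 and the theta genes a gap then appeared, with Gstt1 at 23.9, Gstt3 at 14.7 and Gstt2 at 9.01, and Gstp2 was again last at 2.83 ± 1.09. The place of Gsta3 depends on the length used, because its exons together span 4344 bases and its longest coding transcript 1457. Per kilobase of the longest coding transcript, chosen after the data were seen, Gsta3 came next after Gstp1 in both groups, above Gsta1 and Gsta2. It was then at 133 ± 31.6 in control eyes, with no overlap with Gsta1 (55.3 ± 11.9), and at 583 ± 93.7 in Nrf2 eyes, overlapping with Gsta2 (464 ± 122). Gsta2 then stood above Gsta1 (441 ± 91.5) in Nrf2 eyes, as it did in CPM without length. Under that scaling Gstp1 was at 844 ± 105 in Nrf2 eyes and overlapped with none of the alpha genes below it, and Gstt3 stood above Gstt1 in control eyes. In CPM without length, Gsta3 was above Gstp1 in Nrf2 eyes, with 849.7 against 693 CPM. Gsto1, Gsta4 and Gstp1 held the first 3 places, and Gstp2 the last, per kilobase of either length. The order within the pairs Gsta1 and Gsta2, and Gstp1 and Gstp2, also depends on how shared reads were assigned.

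Of the summed CPM per kilobase of the 10 genes, omega held 68.3% ± 1.67 in control eyes and 55.0% ± 5.37 in Nrf2 eyes (SD, n = 5 per group), and the Nrf2 eye was the lower in all 5 mice. Alpha held 27.7% ± 2.58 and 39.4% ± 4.40, higher in all 5. Pi held 2.81% ± 1.37 and 5.01% ± 1.03, higher in all 5, and theta 1.22% ± 0.333 and 0.532% ± 0.189, lower in all 5. Each had an exact paired permutation p of 0.063, the smallest that 5 pairs allow, and shares of 1 total are not independent of each other.

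The mu class was set beside these classes after the data had been seen. The sum of its 7 genes went from 195 ± 43.9 to 5659 ± 1170.2 CPM, with a log2FC of 4.84 (SE 0.16, adjusted p = 6.03e-05). With mu included, the mu share was 2.49% in control and 29.6% in Nrf2 eyes, and the alpha share was 27.0% ± 2.72 and 27.6% ± 2.16 (exact paired permutation p = 0.75, higher in 3 of 5 mice). The omega share then went from 66.6% to 39.0% and the theta share from 1.19% to 0.370%, both lower in 5 of 5 mice, and the pi share from 2.73% to 3.50%, higher in 4 of 5 (exact p = 0.1875). The alpha share was thus higher in the Nrf2 eye of 5 mice only with mu left out of the pool. Per kilobase of the longest coding transcript it was higher in 5 of 5 mice without mu, and with mu it was 22.5% and 25.9%, higher in 4 of 5. By that length, with mu included, the omega share was 71.0% in control and 45.6% in Nrf2 eyes, and the mu share 1.99% and 23.5%.

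**Figure D4:**
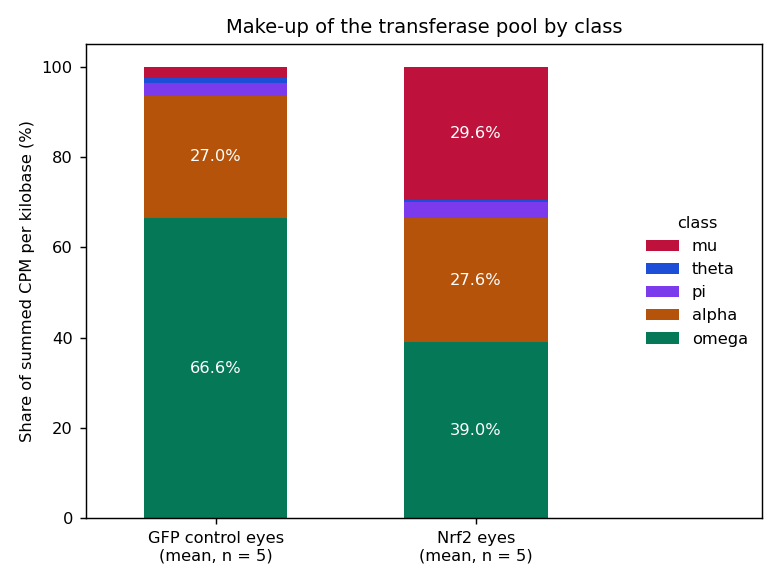
Mean share of the summed CPM per kilobase (y axis, percent) held by the alpha, pi, theta, omega and mu classes in 5 GFP control eyes and 5 Nrf2 eyes, as stacked bars from 0 to 100%. Mu takes 29.6% in Nrf2 eyes against 2.49% in control eyes, omega is at 66.6% and 39.0%, in control and Nrf2 eyes, and alpha is at 27.0% and 27.6%. Divided by the longest coding transcript instead, mu takes 23.5% and omega 45.6% in Nrf2 eyes.

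Other genes of glutathione conjugation were taken from lists of further transferases, glutathione supply and the handling of conjugates. Of 46 listed genes 43 were matched to a row, all but Gsta5, Gsta13 and Gm3776, and 40 of those were tested. Of the tested genes 17 were higher, 1 lower and 22 did not pass, with a median log2FC of 0.67. Among the further transferases 8 of 16 tested were higher and 0 lower, with a median of 0.82. They were Gstm1, Gstm2, Gstm3, Gstm4, Gstm5 and Gstm7 of the mu class, the microsomal Mgst1 (0.94, adjusted p = 0.0446) and Gm10639, an alpha gene close to Gsta2. Gm10639 rose from 1.26 ± 0.180 to 15.7 ± 3.87 CPM (log2FC 3.58, adjusted p = 0.000415), and its transcript shares an identical run of 260 bases with that of Gsta2, so part of its counts could be reads of Gsta2. No fold is given for Gstm3, which was under the floor of 3 counts in every control library, and the median does not change if it stands at its lower bound. Gstz1 of the zeta class (-0.27, adjusted p = 0.233) and the microsomal Mgst3 (-0.15, adjusted p = 0.859) did not pass.

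In glutathione supply 5 of 6 genes were higher. Gclc and Gclm, the subunits of the enzyme of the first synthetic step, had log2FCs of 4.46 (SE 0.13) and 2.95 (SE 0.13). Gss, the synthetase of the final step, had 2.12 (SE 0.14), Gsr, the reductase that restores glutathione, 1.61 (SE 0.08), and the cystine carrier Slc7a11 3.52 (SE 0.17). Its partner chain Slc3a2 had 0.42 (adjusted p = 0.120) and did not pass.

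In the export and breakdown of conjugates, 4 of 18 tested genes were higher and 1 lower, with a median of 0.17. The exporters Abcc1, Abcc3 and Abcc4 had log2FCs of 1.32, 4.36 and 2.79, where Abcc3 started from 0.329 ± 0.239 CPM. Ggt5, which cleaves glutathione conjugates outside the cell, had 2.77, and the dipeptidase gene Dpep2 fell by 1.99 (adjusted p = 0.0137). Dpep2 was the lone lower call of these lists, and 0 genes were called lower with the rod covariate, with the RPE covariate or without mouse 4. Ggt1 (0.52, adjusted p = 0.113) and Abcc5 (-0.11, adjusted p = 0.727) did not pass.

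For the gene of each class with the highest mean CPM, without scaling to length, the genes most alike were those with the smallest root mean square difference of the 5 within-mouse log2 ratios, among 10538 genes. For Gsto1 they were Tgm5 (0.101), Slc52a3 (0.116) and Slc5a8 (0.131). Gsta4 was followed by Fmn1 (0.175), Ckap4 (0.222) and Acp5 (0.228). Those nearest to Gstp1 were Cpxm1 (0.155), Ccdc88a (0.213) and Esd (0.232). For Gstt3 they were Cyp4f16 (0.129), Fah (0.130) and Cipc (0.149). These values describe 5 mice, and genes chosen for likeness carry no test.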

How the data were processed

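RNA-seq was analysed from 10 libraries, 1 Nrf2 and 1 GFP control eye of each of 5 mice. The authors aligned reads with STAR to mm10 with Ensembl transcripts and counted them per gene with featureCounts, and in parallel passed Salmon estimates to DESeq2. The submitters' processing notes name FastQC and Salmon 0.8.2. The strand setting, any filter and which program's counts were deposited are not given in the sources used here. The deposited values are raw counts per Ensembl gene with no normalization, and 0 columns belonged to other samples. Without the strand setting, reads of a gene and its antisense partner cannot be told apart.

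Symbols and positions came from GENCODE M21, which held 99.1% of the 47729 identifiers. Groups and mice came from the labels. The sharing of a mouse was checked on the counts: deviations from the group means correlated at 0.19 to 0.71 between eyes of a mouse and at -0.42 to 0.28 between mice. The libraries are separate eyes, and with the mouse as a block the p-values rest on how the difference between eyes varied over 5 mice. The edgeR test also draws on the spread of the other genes.

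Counts were tested with edgeR 4.0.16 (R 4.3.3, limma 3.58.1) after filterByExpr and TMM normalization, with the quasi-likelihood F test blocked on mouse, and p-values were adjusted over all tested genes by Benjamini-Hochberg with a threshold of 0.05. Fold changes are Nrf2 over control, and SE is that of the 5 within-mouse log2 ratios of CPM (prior count 2). Class and pool comparisons used exact paired permutation tests, two-sided. Transcripts and promoters were aligned with Biopython 1.88, and figures were drawn with matplotlib 3.10.9. The fits were tested on simulated data. Alternatives included DESeq2 1.42.0, other normalization, filters, covariates, depth and leaving out each mouse. The members, gene lists and tests were chosen with earlier results of these data known. All 10 transferases were named, with other conjugation genes that passed, up to 6 that did not by mean CPM, the 3 genes most alike the leading gene of each class (at least 10 CPM in a group) and genes overlapping a member.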

Additional observations from a re-analysis of the deposited data

Results flagged for a closer look

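In 2 of 26 groups of 5 libraries, 1 library lay farther from the others than Dixon's 95% limit allows, where chance gives about 1 in 20 groups, or 1.3 of the 26. The Nrf2 eye of mouse 1 was low in Gstt1, at 2.92 log2 CPM against 5.06 to 5.92 in the other Nrf2 eyes, and the control eye of that mouse was the lowest control as well. The Nrf2 eye of mouse 3 was high in Gstt2, at 5.85 log2 CPM against 4.96 to 5.05, and it had the highest RPE marker sum of the Nrf2 eyes. Whether cell content had a part in either was not tested.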

How the results depend on the processing

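Of 291 values under alternative settings, 244 were graded as the same, 21 no longer passed and 5 newly passed. A further 17 counts, shares or places moved and 4 changed sign. Values graded as the same kept their direction and side of the threshold or stayed within the spread. Counts of calls were also graded so when they changed by a few, such as 15 in place of 18. The 244 include class differences, whose exact test could not pass the threshold under any setting. With no replicate block 5 of the 10 transferases passed in place of 6, with Gstt3 lost, 2 of the 4 class sums in place of 3, and 18 of the other conjugation genes as with it. That count of 18 was 15 with the rod covariate, 15 to 18 when each mouse was left out, 21 with DESeq2 and 19 under each of the remaining planned settings. The class sums that passed numbered 1 with the rod covariate and between 1 and 3 when each mouse was left out, with 1 without mouse 2. With the RPE markers as a covariate, chosen after seeing the data, 1 of the transferases, 0 class sums and 4 other conjugation genes, in place of 18, passed. The alpha, pi and theta sums then had log2 fold changes of 0.90, 1.82 and -0.44, and the log2 fold changes of Gstt1, Gsto1 and the omega sum turned to 0.26, -0.57 and -0.57. The alpha minus pi difference turned to 1.01 with unweighted means of member ratios. The RPE marker level was lower in the Nrf2 eye than in the control eye of each mouse, and the cause of the losses under it was not tested. Gsta2 passed in all 12 of its alternatives. Depth limits Gstp2 most, at 9 to 80 counts per library.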
